A study of Rattus norvegicus with 6 samples.

Results

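The iron genes described here are the 10 named genes of iron uptake (Tfrc, Slc11a2, Steap3 and Slc39a14), iron export (Slc40a1), iron storage (Fth1, Ftl1 and Ncoa4) and iron sensing (Aco1 and Ireb2). They were taken from the deposited count table by gene symbol, and 10 of 10 were found among its 40456 genes. The table came from poly-A RNA sequencing of H9c2 (2-1), a line of rat heart myoblasts that the labels give as cardiomyocyte and wild type. All cells had spent 5 days in medium with 1% serum and 1 µM retinoic acid. Gapmers with locked nucleic acid bases were added at 25 nM by transfection, 24 h before harvest. A gapmer is a short antisense strand through which RNase H cuts a matching RNA. The control group of 3 libraries received a negative control gapmer and the knockdown group of 3 libraries a gapmer against Tug1, a long non-coding RNA. The labels do not say whether the 3 libraries of a group came from separate cultures, so p-values measure the spread between these libraries, which may be technical.

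The sequences of both gapmers are given in the labels and are shown here because the labels give them as the difference between the groups. Each has 16 bases, written 5′ to 3′ in lower case with no stretch singled out.
Tug1 gapmer: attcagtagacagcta
Negative control gapmer: gctcccttcaatccaa
Only this Tug1 gapmer was used, so effects of losing Tug1 and other effects of the oligonucleotide cannot be told apart.

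Most cells take up iron as transferrin bound to the transferrin receptor, release it in the acidic endosome, reduce it and pass it to the cytosol, where it is used, stored in ferritin or exported by ferroportin. Iron regulatory proteins bind hairpins in the messenger RNAs of these genes when iron is scarce. Binding shields the receptor mRNA from decay and blocks translation of ferritin and ferroportin mRNA, so part of this control acts on protein output and is not visible in mRNA counts. Heart muscle has a high demand for iron in heme and iron-sulfur proteins, and excess iron in it is toxic.

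Libraries held 12978548 to 13544337 counts, so 1 CPM (counts scaled to library size, here on edgeR's TMM scale) stood for 12.9 to 13.8 counts. The targeted Tug1 fell from 54.0 ± 1.77 CPM in controls to 11.9 ± 0.609 CPM (SD, n = 3), with no overlap between the groups. Of 14216 genes tested, 8773 were called changed at an edgeR adjusted p under 0.05. Markers of a mature cardiomyocyte were near 0: Myh6, Myh7, Nkx2-5, Tnni3 and Ryr2 had group means from 0 to 0.154 CPM. The skeletal muscle regulator Myog had group means of 275 (control) and 486 CPM (knockdown), and the cardiac troponin gene Tnnt2 had 349 and 410.3 CPM. Actc1, Ckm and Des also rose, by 0.97, 0.61 and 0.22 on the log2 scale, all called. Pln, the regulator of the reticulum calcium pump, and Myod1 went the other way, at -0.68 and -0.32, both called. Gata4 at -0.26 was not called (edgeR adjusted p 0.0627). The summed level of the 13 muscle markers was 772 to 792 CPM in control libraries and 1027 to 1116 CPM in knockdown libraries. Most of that sum came from Myog and Tnnt2, and its part in the differences below was not tested. The 5 fibroblast markers summed to 28502 to 29444 and 27077 to 29102 CPM. Within that sum Col1a1 and Thy1 fell (-0.23 and -0.40 on the log2 scale), while Col3a1 and Dcn rose (0.47 and 0.57), all called. Pdgfra was too low to be tested. Macrophages hold much iron, and the 5 macrophage markers summed to 10.6 to 12.1 CPM in controls and 15.4 to 17.2 CPM after knockdown. Of these, Cd68 was called higher, with group means of 3.60 (control) and 7.65 CPM (knockdown). Csf1r was not called (0.21 on the log2 scale, edgeR adjusted p 0.171). Ptprc, Adgre1 and C1qa had 0 counts in all 6 libraries. The erythroid markers Hbb and Hba-a1 and the hepatocyte marker Alb also had 0 counts in all 6. In bulk RNA, fewer cells of a type and less RNA per cell cannot be told apart.

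All 10 iron genes were expressed and tested, and they moved in different directions. The exporter Slc40a1, both ferritin chains Fth1 and Ftl1, and the importer Slc11a2 rose. The endosomal reductase Steap3, the importer Slc39a14 and the iron sensor Aco1 fell. The receptor Tfrc, the ferritin receptor Ncoa4 and the sensor Ireb2 were not called. That made 7 of 10 genes called, 4 higher and 3 lower, beside 61.7% of all tested genes called (30.8% higher and 30.9% lower), so the share called was near the background. The median log2 fold change of the 10 genes was -0.03, and that of all tested genes was 0.00. The median size of the change, regardless of sign, was 0.29 for the 10 genes and 0.34 for all tested genes. Libraries of the 2 groups did not overlap for 9 of the 10 genes, 4 higher and 5 lower, beside 65.6% of all tested genes (33.0% higher and 32.6% lower). Tfrc was the exception.

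**Figure D1:**
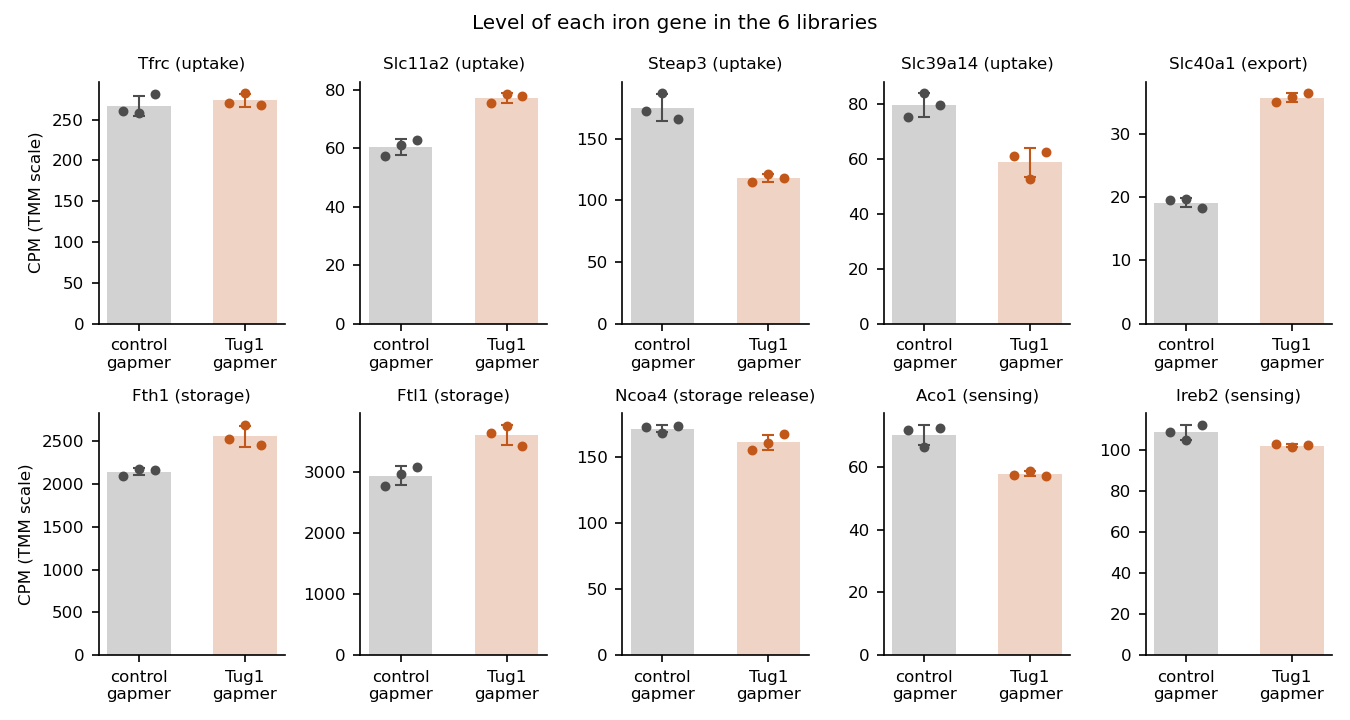
CPM on the TMM scale (y axis, from 0) of each of the 10 iron genes in the 3 control gapmer and 3 Tug1 gapmer libraries; points are libraries, bars group means and whiskers SD. Relative to its control mean Slc40a1 shows the widest gap, from 19.1 to 35.8 CPM, and the points of Tfrc overlap between groups.

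Tfrc encodes transferrin receptor 1, which brings transferrin-bound iron into the endosome and whose mRNA is a standard readout of iron regulatory protein activity. Its level was 261, 258 and 281 CPM in control libraries 1 to 3 and 270.4, 283 and 268 CPM in knockdown libraries 1 to 3. The groups overlapped, since control library 3 lay above knockdown libraries 1 and 3. The difference on the log2 scale was 0.04 (SE 0.0469, adjusted p 0.50 in edgeR), with a 95% interval from -0.06 to 0.14. Its RefSeq promoter window, the 250 bases before the annotated start, is shown because it held the most motif matches of the 3 windows printed here (chr11:81690319-81690568, minus strand, GRCr8). Capitals mark matches to the hypoxia response element core and the metal response element core, described with the other windows further on.
Tfrc: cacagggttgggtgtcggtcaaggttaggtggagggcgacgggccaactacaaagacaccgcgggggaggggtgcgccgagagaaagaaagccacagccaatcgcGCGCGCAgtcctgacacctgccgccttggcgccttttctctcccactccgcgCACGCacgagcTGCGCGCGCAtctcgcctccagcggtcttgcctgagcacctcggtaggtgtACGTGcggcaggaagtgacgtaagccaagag

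Steap3 encodes the endosomal ferrireductase that converts iron released from transferrin to the form the transporter accepts. Control libraries 1 to 3 had 173, 187 and 166 CPM, and knockdown libraries 1 to 3 had 114, 121 and 118 CPM. All knockdown libraries lay well below all controls. Steap3 fell by 32.7%, or -0.57 on the log2 scale (SE 0.0529, adjusted p 2.97e-09 in edgeR), the lowest value of the 10 genes. Its promoter window is shown as that of the gene that fell furthest (chr13:33944357-33944606, minus strand, GRCr8). Capitals mark its only match, to the metal response element core.
Steap3: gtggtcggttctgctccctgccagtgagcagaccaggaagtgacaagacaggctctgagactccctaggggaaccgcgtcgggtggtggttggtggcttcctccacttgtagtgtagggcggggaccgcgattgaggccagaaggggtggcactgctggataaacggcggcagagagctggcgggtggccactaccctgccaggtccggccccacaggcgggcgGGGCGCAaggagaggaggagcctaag

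Slc11a2 encodes DMT1, the transporter that carries reduced iron from the endosome to the cytosol, the step after the Steap3 reductase. Its level was 57.3, 61.2 and 62.9 CPM in controls and 75.5, 78.6 and 77.7 CPM after knockdown. The groups did not overlap. Slc11a2 rose by 27.8%, or 0.35 on the log2 scale (SE 0.0571, adjusted p 1.16e-05 in edgeR), so that reductase and transporter of the same route moved in opposite directions. Counts were per gene, and the mRNA forms of Slc11a2 with and without an iron-responsive element were not separated.

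Slc39a14 encodes ZIP14, a surface importer of iron that is not bound to transferrin and of zinc and manganese. Levels were 75.2, 83.9 and 79.5 CPM in controls and 61.0, 52.7 and 62.5 CPM after knockdown. The groups did not overlap, and knockdown library 2 was the lowest. Slc39a14 fell by 26.2%, or -0.44 on the log2 scale (SE 0.0656, adjusted p 4.22e-06 in edgeR). Without knockdown library 2 the log2 fold change was -0.36.

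Slc40a1 encodes ferroportin, the iron exporter of mammalian cells and the target of the hormone hepcidin. It had 19.5, 19.7 and 18.3 CPM in control libraries 1 to 3 and 35.0, 35.8 and 36.5 CPM in knockdown libraries 1 to 3. Within each group the libraries were close together, and the gap between groups exceeded the SD of either group. Slc40a1 rose 1.87-fold, or 0.90 on the log2 scale (SE 0.0766, adjusted p 7.14e-10 in edgeR), the highest value of the 10 genes. Of all tested genes, 87.6% had a smaller change in size. Slc40a1 has the longest genomic span of the 10 genes, 108007 bases. With the offset on genomic span described below for ferritin, Slc40a1 was at 0.70 on the log2 scale and still called. Its promoter window is shown as that of the gene that rose furthest (chr9:55543461-55543710, minus strand, GRCr8), and none of the motifs searched was present in it, so it has no capitals.
Slc40a1: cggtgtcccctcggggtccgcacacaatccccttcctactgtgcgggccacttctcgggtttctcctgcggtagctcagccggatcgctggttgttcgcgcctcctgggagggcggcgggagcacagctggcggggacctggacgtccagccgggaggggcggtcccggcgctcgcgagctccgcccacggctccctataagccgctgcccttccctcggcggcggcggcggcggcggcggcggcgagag

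Fth1 and Ftl1 encode the heavy and light chains of ferritin, the shell that stores iron; the heavy chain oxidises iron and the light chain favours its deposition. Fth1 had 2095, 2179.8 and 2160.0 CPM in control libraries 1 to 3 and 2526, 2695 and 2457 CPM in knockdown libraries 1 to 3. Ftl1 had 2767, 2961 and 3073 CPM in controls and 3637, 3747 and 3414 CPM after knockdown. For both chains all knockdown libraries were above all controls, and knockdown library 3 was the lowest of its group. Fth1 rose by 19.3% (0.25 on the log2 scale, SE 0.0424, adjusted p 1.71e-05 in edgeR). Ftl1 rose by 22.7% (0.30 on the log2 scale, SE 0.0456, adjusted p 6.49e-06 in edgeR). Together the ferritin chains took 0.479% to 0.512% of all counts in control libraries and 0.599% to 0.652% in knockdown libraries.

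Ferritin genes have many near-identical processed copies, and how reads shared between copies were counted is not given in the sources used here, so both levels are uncertain. LOC100360087, which RefSeq lists under the synonym Ftl1, held 338, 296 and 211 counts in controls and 424, 318 and 421 after knockdown, or 0.530% to 0.937% of the Ftl1 count of the same library. Ftl1l1 held 1 to 10 counts and Fthl17e 0 to 3 counts per library. Both ferritin genes are short, with genomic spans of 2289 bases for Fth1 and 1848 bases for Ftl1. Only 4.30% and 2.96% of tested genes with a known span were shorter. With an offset that removes from each library the trend of its deviations on genomic span, the log2 fold changes were 0.45 for Fth1 and 0.50 for Ftl1, over 1.5 times the values without it.

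Ncoa4 encodes the receptor that carries ferritin to the lysosome for iron release. Levels were 173, 168 and 174 CPM in controls and 156, 161 and 167 CPM after knockdown. The groups did not overlap, but knockdown library 3 and control library 2 differed by less than the SD of either group. The difference on the log2 scale was -0.09 (SE 0.0479, adjusted p 0.101 in edgeR), with a 95% interval from -0.19 to 0.01, and it was not called.

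Aco1 and Ireb2 encode iron regulatory proteins 1 and 2. The first acts as the cytosolic aconitase when it holds an iron-sulfur cluster, and the other is degraded when iron is plentiful. Aco1 had 71.7, 66.5 and 72.7 CPM in controls and 57.6, 58.8 and 57.2 CPM after knockdown, with no overlap. It fell by 17.6%, or -0.28 on the log2 scale (SE 0.0577, adjusted p 0.000212 in edgeR). Ireb2 had 109, 105 and 112 CPM in controls and 103, 101 and 102 CPM after knockdown. Its groups did not overlap either, but its difference of -0.09 on the log2 scale (SE 0.0513, adjusted p 0.135 in edgeR, 95% interval -0.20 to 0.02) was not called. Ireb2 is a long gene with a span of 83551 bases, and with the length offset it was called lower at -0.25 (edgeR adjusted p 0.000104). Only for Ireb2, among the 10 genes, did a call depend on any of the alternatives tried.

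**Figure D2:**
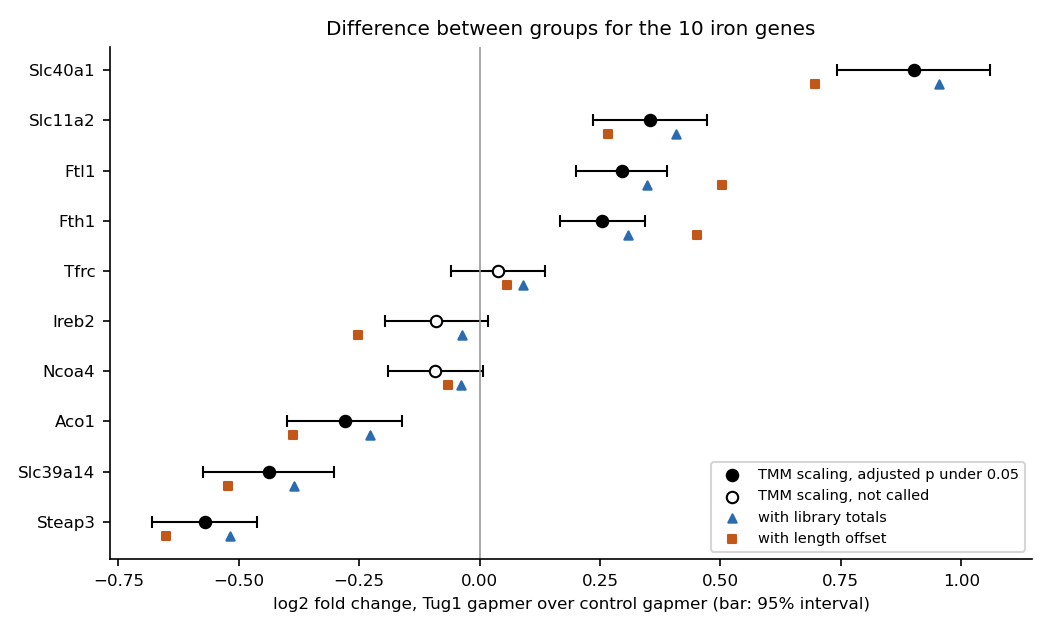
Log2 fold change of each iron gene, Tug1 gapmer over control gapmer (x axis), with its 95% interval; filled circles passed an edgeR adjusted p of 0.05, triangles are values with library totals and squares values with the length offset. The 10 genes run from Steap3 at -0.57 to Slc40a1 at 0.90, and the offset moves the short ferritin genes up and the 6 genes with the longest spans down.

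Ratios of counts within a library do not depend on how libraries are scaled, and they show which iron genes moved apart. Counts of different genes also reflect transcript length, so a ratio is read across libraries and not as a ratio of molecules. The offset on genomic span was not applied to these ratios. With that offset the log2 fold changes were 0.06 for Tfrc, 0.70 for Slc40a1, 0.45 for Fth1 and 0.50 for Ftl1. Those of Aco1 and Ireb2 were -0.39 and -0.25. Ftl1 counts per Fth1 count were 1.32, 1.36 and 1.42 in controls and 1.44, 1.39 and 1.39 after knockdown. These values overlapped, so the balance of the chains did not separate the groups. Tfrc counts per 1000 ferritin counts (Fth1 plus Ftl1) were 53.6, 50.2 and 53.7 in controls and 43.9, 43.9 and 45.6 after knockdown, with no overlap. Tfrc counts per Slc40a1 count, import receptor against exporter, were 13.4, 13.1 and 15.4 in controls and 7.72, 7.90 and 7.35 after knockdown. Here too all knockdown libraries were below all controls, and Slc40a1 was the member of the pair that was called. Aco1 counts per Ireb2 count were 0.660, 0.635 and 0.647 in controls and 0.561, 0.581 and 0.560 after knockdown, again with no overlap. No test was run on these ratios.

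**Figure D3:**
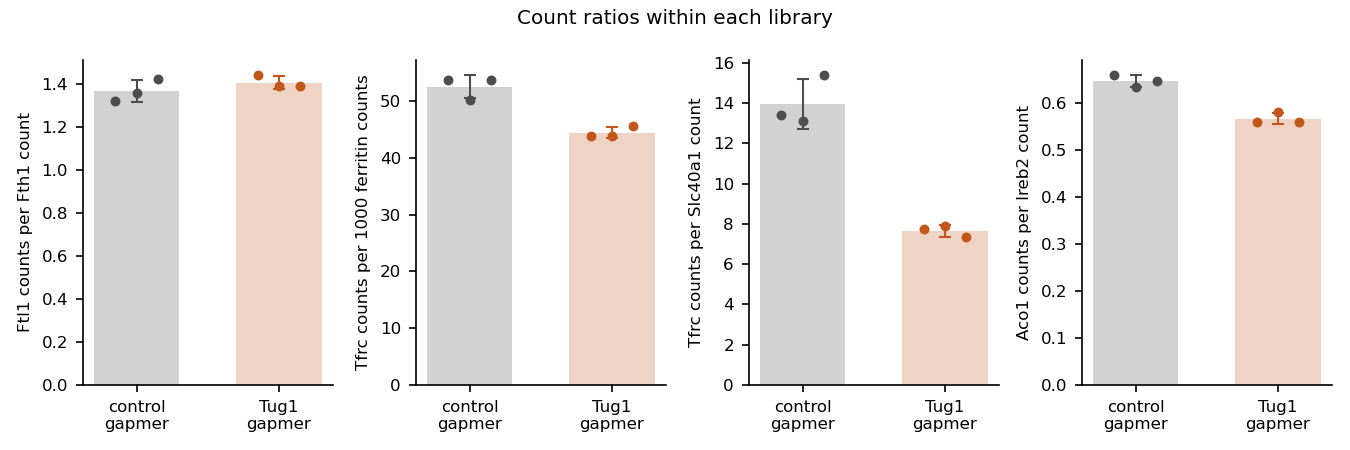
Ratio of counts within each library (y axes, from 0) for 4 ratios among the iron genes in the 3 control gapmer and 3 Tug1 gapmer libraries; points are libraries, bars group means and whiskers SD. The ferritin chain ratio overlaps between groups, and the other ratios are lower in all knockdown libraries.

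The RefSeq promoter table for GRCr8 held windows for 7 of the 10 genes, 8 windows in all, with 2 for Slc11a2. Fth1, Ftl1 and Slc39a14 were not matched. The 250 bases before the start were searched on both strands for 4 motifs. The antioxidant response element core bound by NRF2, TGACNNNGC, was in 1 of 8 windows, that of Ncoa4 from position -52 to -44, beside 10.1% of the 33469 windows in the table. The hypoxia response element core, ACGTG or GCGTG, was in 4 of 8 windows (Tfrc, Slc11a2, Ncoa4 and Aco1), beside 36.7% of all. The metal response element core, TGCACNC or TGCGCNC, was in 3 of 8 (Tfrc, Steap3 and Ncoa4), beside 20.6% of all. The E-box CACGTG, which contains the first form of the hypoxia core, was in 0 of 8, beside 5.59% of all. In the 50 bases after the start, the iron-responsive element loop CAGTGN was in 0 of 8 on the sense strand, beside 7.26% of all. The rest of each mRNA was not searched, and both ferritin genes had no window. The 0 of 8 therefore cannot show whether these mRNAs hold the element. These are letter matches at annotated starts, and which starts the cells used was not measured. Genes with matches were found among those that rose (Slc11a2), fell (Steap3 and Aco1) and were not called (Tfrc and Ncoa4).

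A wider set of 95 other genes of iron, heme and iron-sulfur metabolism and of lipid peroxidation defence was compared in the same fit, in 8 lists. Of these, 82 were tested and 61 (74.4%) called, 34 higher and 27 lower, beside 61.7% of all tested genes. The median log2 fold change was 0.06, beside 0.00 for all tested genes.

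Of 13 genes of transferrin handling and surface uptake, 8 were tested, 2 rose and 5 fell, with a list median of -0.25, beside 30.8% of all tested genes called higher and 30.9% lower. Steap1, of the same family as Steap3, fell from 45.2 ± 1.34 to 12.7 ± 0.430 CPM (mean ± SD over 3 libraries). Its change was -1.83 on the log2 scale (SE 0.0791, adjusted p 9.84e-15 in edgeR). Slc39a8, the closest relative of Slc39a14 and likewise a metal importer, fell from 11.7 ± 0.653 to 6.19 ± 0.469 CPM (mean ± SD over 3 libraries), a change of -0.91 on the log2 scale. Steap2, of the same family and named after its values were seen, was at -0.23 (adjusted p 0.00970 in edgeR), but was not called without control library 3 (-0.18) or without knockdown library 2 (-0.17). Mcoln1, a lysosomal cation channel that passes iron, rose by 0.41 and Lrp1, a receptor for heme bound to hemopexin, by 0.29, or 0.13 with the length offset. Transferrin itself (Tf), Tfr2 and Hfe were too low to be tested, with group means from 0.129 to 1.06 CPM.

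Among 11 genes of iron chaperones, sensing and export partners, 9 were tested, 4 rose and 3 fell. That made 77.8% called, beside 61.7% of all tested genes. Pcbp1, which delivers iron to ferritin, fell from 450 ± 18.3 to 331 ± 10.3 CPM (mean ± SD over 3 libraries, -0.44 on the log2 scale), while both ferritin chains rose. Fbxl5, the iron-sensing ubiquitin ligase subunit that degrades iron regulatory protein 2, fell by 0.33 on the log2 scale. Herc2, a ubiquitin ligase that acts on Fbxl5, rose by 0.70 and Hjv, the hemojuvelin co-receptor of bone morphogenetic proteins, by 0.81. Heph, a ferroxidase that works with ferroportin and was named after its values were seen, fell by 0.30 on the log2 scale. Cp, of the same list and also named after its values were seen, had group means of 310 (control) and 303 CPM (knockdown). It was not called (-0.03 on the log2 scale, edgeR adjusted p 0.545). With the length offset Pcbp1 was at -0.24, Herc2 at 0.36 and Heph at -0.65, all called. Hamp, the hepcidin gene, was at group means of 0.103 (control) and 0.222 CPM (knockdown) and was not tested. It had 2, 0 and 2 counts in control libraries 1 to 3 and 0, 9 and 0 in knockdown libraries 1 to 3. The knockdown mean thus came from library 2 alone.

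For mitochondrial iron import and iron-sulfur cluster assembly, 20 of 21 genes were tested, 8 rose and 5 fell. The share called was 65%, near the 61.7% of all tested genes. Slc25a37, mitoferrin 1, fell from 62.6 ± 0.714 to 33.3 ± 3.47 CPM (mean ± SD over 3 libraries). Its change was -0.91 on the log2 scale (SE 0.0699, adjusted p 1.35e-10 in edgeR). Its relative Slc25a28, mitoferrin 2, named after its values were seen, rose by 0.20, from 54.1 to 62.4 CPM, but was not called without control library 3 (0.15). Glrx5, a mitochondrial glutaredoxin that hands on clusters, rose from 19.5 ± 0.815 to 47.0 ± 5.77 CPM (mean ± SD over 3 libraries), a change of 1.27 on the log2 scale. Fdxr, which feeds electrons to ferredoxins, rose by 0.48. Fdx2, the ferredoxin of cluster assembly, fell by 0.32 on the log2 scale, but was not called with the length offset (-0.18, edgeR adjusted p 0.0590). The ferritin of mitochondria, Ftmt, had 0 counts in all libraries.

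In the cytosolic cluster assembly list, 11 of 11 genes were tested, 5 rose and 2 fell. The share called was 63.6%, near the 61.7% of all tested genes. Ciapin1 fell by 0.54 on the log2 scale and its electron donor Ndor1 rose by 0.51. Ciao3, which takes part in passing clusters to target proteins, rose by 0.65. Bola2, a partner of the glutaredoxin Glrx3, was at -0.23, a call that was lost with the length offset (0.03). This list and the mitochondrial list thus held genes moving both ways, with medians of 0.07 and 0.10.

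Of 11 genes of heme breakdown and transport, 10 were in the table, 9 were tested and all 9 were called, 6 higher and 3 lower, with a median of 0.37. Beside this stand the 61.7% of all tested genes called, and with so few genes the share was not tested. Flvcr2, a transporter first described for heme, rose from 33.7 ± 2.31 to 69.4 ± 3.06 CPM (mean ± SD over 3 libraries), a change of 1.04 on the log2 scale. Slc48a1, which carries heme out of the endosome and lysosome, rose by 0.63. Hmox1 and Hmox2, the heme oxygenases that free iron from heme, were higher by 0.41 and 0.65, and biliverdin reductase Blvrb by 0.37. The other biliverdin reductase of the list, Blvra, was called lower, at -0.20 (edgeR adjusted p 0.0263). Hmox1, Hmox2, Blvrb and Blvra were named after their values were seen. Pgrmc1, a heme-binding membrane protein, fell by 0.42 and Slc46a1, a folate carrier that also carries heme, by 0.63 on the log2 scale. For heme synthesis, 11 of 12 genes were tested, of which 2 rose, 4 fell and 5 were not called, with a median of -0.04. That made 54.5% called, beside the same 61.7%. Tmem14c, needed for porphyrin import into mitochondria, fell by 0.45 and the enzyme gene Cpox by 0.31 on the log2 scale. The transporters Abcb6 and Abcb10 rose by 0.69 and 0.40. Whether the lists differ from each other was not tested.

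Among 6 other transcripts with a described iron-responsive element, 5 were tested, 3 rose and 1 fell. That made 80% called, beside 61.7% of all tested genes, and with so few genes the share was not tested. Pfn2, an actin-binding profilin, fell by 0.68 on the log2 scale. Cdc42bpa, a kinase, was at 0.27, but with the length offset it was at -0.055 and not called.

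**Figure D4:**
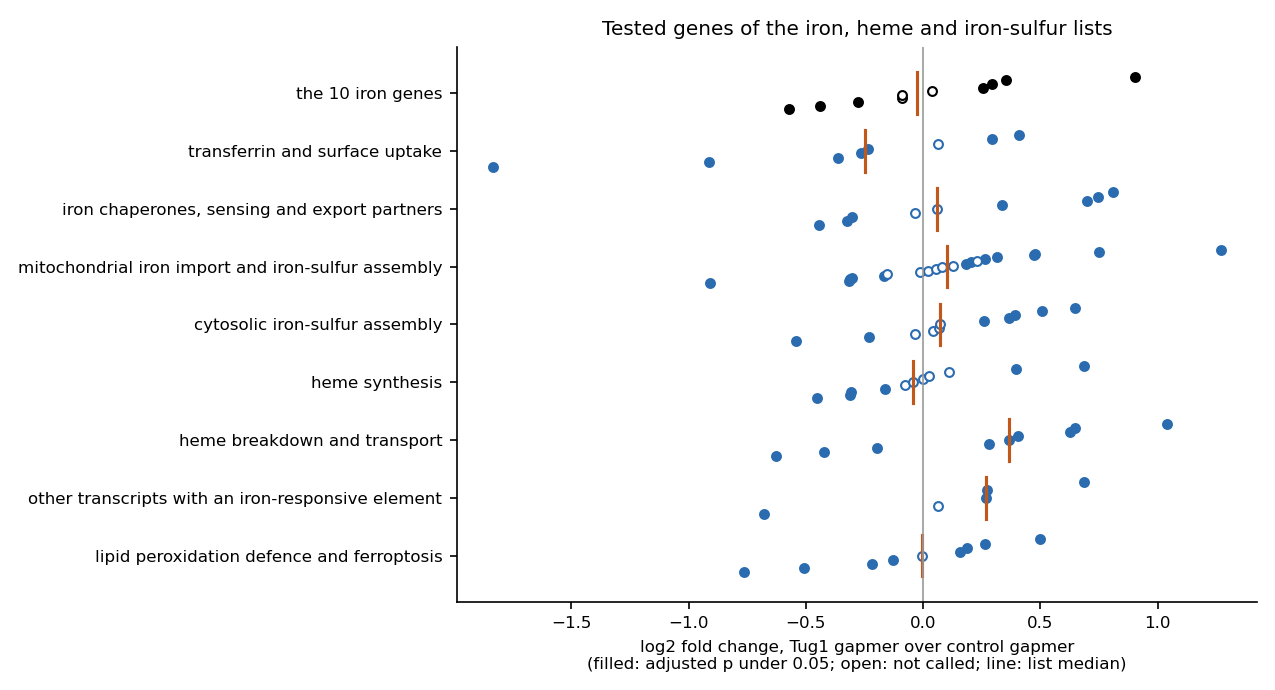
Log2 fold change (x axis) of every tested gene in the 8 wider lists and of the 10 iron genes; filled points passed an edgeR adjusted p of 0.05, open points did not, and the orange line is the list median. Each list holds genes on both sides of 0, and heme breakdown and transport has the highest median, 0.37.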

How the data were processed

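A stranded poly-A kit was used on 500 ng of RNA per library with an RNA integrity number of at least 9, per the labels' protocols. What the authors deposited is a table of whole-number counts by gene symbol, not scaled, as the values themselves show. Each of the 6 libraries has its own column, which does not show whether a library was made from pooled material. The submitters' processing notes name FastQC 0.11.7, fastp 0.14.1 and STAR 2.5; the counting tool, genome build, annotation, use of strand and treatment of shared reads are not given in the sources used here. The table had 0 unnamed genes and 0 columns outside the 6 libraries.

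Genes that passed edgeR's filter (minimum count 10, minimum total 15) were scaled by TMM and tested with edgeR's quasi-likelihood test (R 4.3.3, edgeR 4.0.16, prior count 0.125, two-sided, no block), with Benjamini-Hochberg adjustment over all 14216 tested genes and a threshold of 0.05. The SE of an edgeR value was derived as the size of the log2 fold change divided by the square root of its F statistic. Intervals are 95% intervals from this SE. Positive fold changes mean higher with the Tug1 gapmer. The iron genes and the wider lists were chosen with earlier results of these data known. Named genes were the 10 iron genes and, of each wider list, up to 2 called genes with the smallest p in each direction; others are said to have been named after their values were seen. A gene that met the rule is counted but not reported here by name.

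Alternatives were DESeq2 size factors, library totals, the Wald test of DESeq2 (1.42.0), voom with limma (3.58.1), no filter beyond 1 count, a mean of at least 1 CPM, a threshold of 0.01, the replicate number as a block, an offset on genomic span (lowess span 0.3; spans from RefSeq GRCr8 for 92.0% of tested genes), and each library left out. The scripts were tested on simulated counts. Promoter sequences came from RefSeq (GRCr8).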

Additional observations from a re-analysis of the deposited data

How the results depend on the processing

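All alternatives were planned. The number of iron genes called was 7 in every alternative except the length offset, with or without the replicate block, where it was 8 through Ireb2. With each library left out in turn it was 7 in all 6 fits. Over all tested genes 7353 to 8987 were called, and on the wider lists 53 to 61. Of 150 combinations of iron gene and alternative, 148 kept direction and call and 2 gained a call, both for Ireb2 with the length offset. Ranges of the log2 fold change were 0.70 to 0.95 for Slc40a1, 0.27 to 0.41 for Slc11a2, 0.22 to 0.45 for Fth1, 0.25 to 0.51 for Ftl1, 0.01 to 0.09 for Tfrc, -0.65 to -0.52 for Steap3, -0.52 to -0.36 for Slc39a14 and -0.39 to -0.23 for Aco1. Scaling by library totals moved the median of all tested genes to 0.06, and no iron gene changed its call. Of 585 combinations for 39 other named genes, 571 kept direction and call. Blvra, Cp and the cell type markers were not among these 39. With the length offset, without and with the replicate block, Bola2 was at 0.0313 and 0.0319, Cdc42bpa at -0.0550 and -0.0561, Gpx4 at 0.0540 in both, and Fdx2 at -0.18 and not called. The cause was not tested.

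The labels describe no pairing, so the replicate numbers were not taken to pair the libraries. Deviations of same-numbered libraries correlated at -0.0079 (number 1), 0.0408 (number 2) and 0.0368 (number 3) across genes. With 3 libraries per group such values cannot show whether the libraries were paired. Controls 2 and 3 correlated best with their own number and control 1 did not, which is a hint from the data and not from the design. A fit with a replicate block called 8848 genes, 7 iron genes and 61 genes of the wider lists. Depth limited genes near 0.217 to 0.232 CPM, the level of 3 counts, such as Hamp and Tf, and this covers counting error only. The filter's minimum count of 10 lay above that level. Genes such as Tfr2, with group means of 0.566 (control) and 1.06 CPM (knockdown), were therefore also left untested.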

Other observations

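The list of lipid peroxidation defence and ferroptosis, a form of cell death that needs iron, held 10 genes. Of these, 9 were tested, 4 rose and 4 fell, with a median log2 fold change of -0.00. That made 88.9% called, beside 61.7% of all tested genes, and with so few genes the share was not tested. Acsl4, which loads membranes with the fatty acids that peroxidise, rose from 247 ± 15.0 to 350 ± 10.2 CPM (mean ± SD over 3 libraries). Its change was 0.50 on the log2 scale (SE 0.0485, adjusted p 6.57e-09 in edgeR). Lpcat3, which acts after it in the same route, rose by 0.19, or 0.12 with the length offset. Slc7a11, the cystine importer that feeds glutathione synthesis, fell from 28.7 ± 1.82 to 16.9 ± 1.13 CPM (mean ± SD over 3 libraries). Its change was -0.76 on the log2 scale (SE 0.0865, adjusted p 7.15e-08 in edgeR). Dhodh, a mitochondrial enzyme of pyrimidine synthesis, fell by 0.51 on the log2 scale. Gpx4, the enzyme that removes lipid peroxides, was named after its values were seen and had group means of 511 (control) and 467 CPM (knockdown), a log2 fold change of -0.13 (edgeR adjusted p 0.0123). It was not called with library totals (-0.08), without control library 2 (-0.11) or without knockdown library 3 (-0.10), and with the length offset it was at 0.05 and not called.

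Among 9056 other genes with a mean of at least 10 CPM, those whose log2 CPM followed Tfrc most closely over the 6 libraries were Becn1, Dppa4 and Zc3h8 (Pearson r from 0.952 to 0.963), none of which was called. Those closest to Fth1 were Uap1l1, Ggt1 and Pgam2 (Pearson r from 0.996 to 0.999), all called higher, by 0.44, 0.55 and 0.56. These values describe 6 libraries in 2 groups, and for Fth1 they mostly carry the difference between the groups.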
